A study of Canis lupus familiaris with 15 samples.

Results

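Corpora lutea (CL) of 8 of the 15 dogs of the series were compared here, those of 5 dogs at mid-gestation with those of 3 dogs at prepartum luteolysis. The 8 dogs were chosen by their condition labels, and the genes by a mean read count of at least 10 in either group, which held for 14669 of the 23630 genes counted. Each dog gave 1 library of poly-A enriched RNA, read from a single end over 125 bp, and no dog was in more than 1 group. The comparison asks how gene expression in a CL that maintains pregnancy differs from that in a CL undergoing the acute regression before birth.

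All dogs were clinically healthy cross-breed bitches aged 2 to 8 years. Ovulation was set by plasma progesterone (P4) above 5 ng/ml together with vaginal histology, and the pregnant dogs of both groups were mated 2 days later. The mid-gestation dogs (Nescafe, Turgay, Dardanel, Gold and Kurtulus) were untreated and their CL were taken by ovariohysterectomy on days 35 to 40 after ovulation. The luteolysis dogs (Amy, Kimba and Senta) were untreated too, and were followed from day 58 with P4 readings 6 h apart until a run of 3 readings was under a limit of 2 to 3 ng/ml. Stage of gestation, falling P4 and approaching parturition therefore come together in the luteolysis group and cannot be told apart. The paper names animal permits from Giessen and from Ankara. The labels do not give the site of each dog, so collection site could not be checked. The 5 antigestagen-treated dogs, used below for a side-by-side view, were at days 40 to 45. They had received 10 mg/kg of aglepristone, a blocker of the P4 receptor, in 2 applications 24 h apart. Their collection was 24 h after the last. The remaining 2 dogs of the series were non-pregnant, with CL in late regression on day 65 after ovulation. These non-pregnant dogs were not compared here, but entered the scaling and the variance estimates of the main model.

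The CL is the endocrine gland that forms from the follicle after ovulation. In the dog it is the source of P4 throughout pregnancy, since the canine placenta makes no steroids, and it is made of luteal cells set in a dense network of capillaries with pericytes, fibroblasts and resident leukocytes. In luteolysis, P4 output stops and the tissue is then broken down, and prostaglandin F2alpha is the signal best known to start this before birth.

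Total counts per dog were between 15236939 and 26284315, and every pair of dogs within a group differed by more than sampling noise (chi-squared per degree of freedom of 67.9 to 261, where sampling noise gives values near 1). Expression is given as CPM, the counts scaled to a common library size by TMM, and mid-gestation values are listed in the order Nescafe, Turgay, Dardanel, Gold and Kurtulus. A change is the log2 ratio of mid-gestation over luteolysis with its standard error (SE), so that a negative ratio means a higher level at luteolysis. Differentially expressed genes (DEG) had p below 0.01 and Benjamini-Hochberg adjusted p below 0.1 in edgeR's two-sided quasi-likelihood test. CPM are not divided by transcript length and were compared mainly between dogs. Where a gene is called abundant or CPM are summed over a list, longer transcripts weigh more. In whole tissue, fewer cells of a type and less RNA per cell cannot be told apart.

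The library of Amy stood apart from the other 2 luteolysis libraries. Across genes, Spearman's rho was 0.908 between Amy and Kimba and 0.925 between Amy and Senta, against 0.975 between Kimba and Senta. Amy had the lowest level of the 3 luteolysis dogs in 41.7% of all genes tested, and in 88.8% of the genes called higher at luteolysis. Where leaving out Amy changed the call of a gene described below, this is said beside it. Calls that changed on leaving out another dog are said only for some genes. Of the genes that mark steroid-producing luteal cells, STAR, CYP11A1, HSD3B1, HSD3B2 and LHCGR could not be paired with an identifier here, so the labelled tissue could not be checked on them. CYP17A1, INSL3, PRLR, FSHR and GATA4 had reads in all 8 dogs, but the presence of reads does not test whether the tissue is luteal. FSHR is also on the list of follicle and ovarian stroma genes used below.

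Of the 14669 genes, 1197 (8.16%) were DEG. Higher expression at luteolysis was found for 840 of them (5.73% of all genes tested) and higher expression at mid-gestation for 357 (2.43%). The changes were more often large on the luteolysis side, where 567 DEG differed over 2-fold and 144 over 8-fold, against 200 and 20 on the mid-gestation side. The median log2 ratio of all genes tested was −0.02. No overlap between the dogs of both groups was seen in 9.76% of all genes, in 400 of the 840 DEG higher at luteolysis and in 279 of the 357 DEG higher at mid-gestation.

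**Figure D1:**
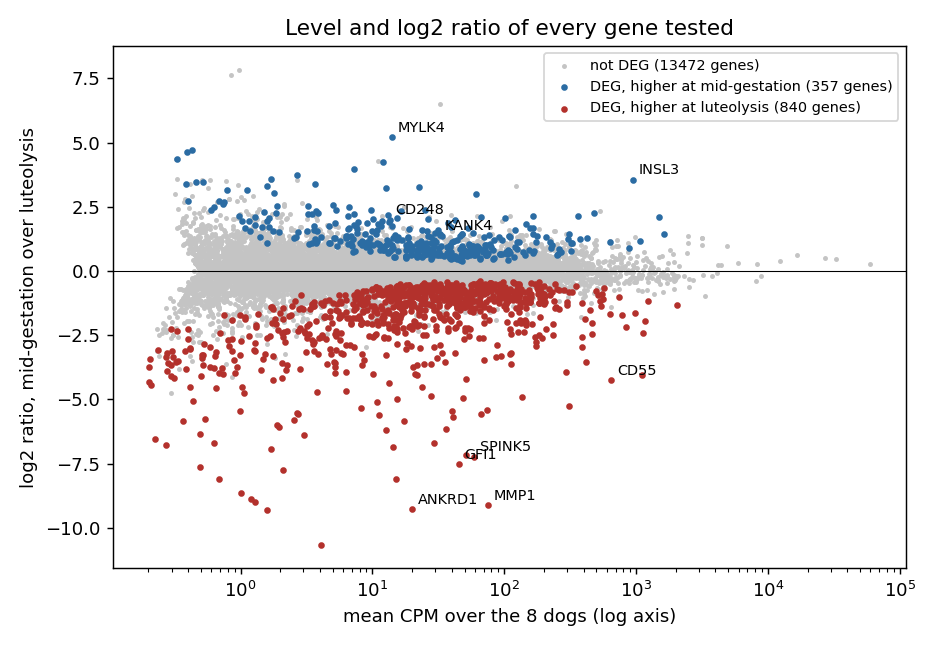
Mean CPM over the 8 dogs (log axis) against the log2 ratio of mid-gestation over luteolysis for each of the 14669 genes tested, with DEG in colour. ANKRD1, at −9.27, is among the lowest ratios of the DEG higher at luteolysis, whereas INSL3 combines a high level with a ratio of 3.55.

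The side on which a gene was higher went together with the position of Amy. For the 840 DEG higher at luteolysis, the median distance from the mid-gestation mean was 0.356 in Amy on the log2 scale, against 1.58 in Kimba and 1.71 in Senta. In 619 of them Amy lay nearer to the mid-gestation mean than to the mean of Kimba and Senta. For the 357 DEG higher at mid-gestation the median distances were −0.83, −1.01 and −1.26, and in 100 of these genes Amy lay nearer to the mid-gestation mean. The values of Amy were among those that decided the calls, so these distances are a description. Without Amy there were 2434 DEG (16.5% of the genes tested), 1369 higher at luteolysis (9.26%) and 1065 higher at mid-gestation (7.2%). Without Kimba there were 474 DEG (321 and 153). Without Senta 112 DEG were left (0.762%), 92 higher at luteolysis (0.626%) and 20 higher at mid-gestation (0.136%). With the model fitted to the 8 dogs alone there were 422 DEG (314 and 108).

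**Figure D2:**
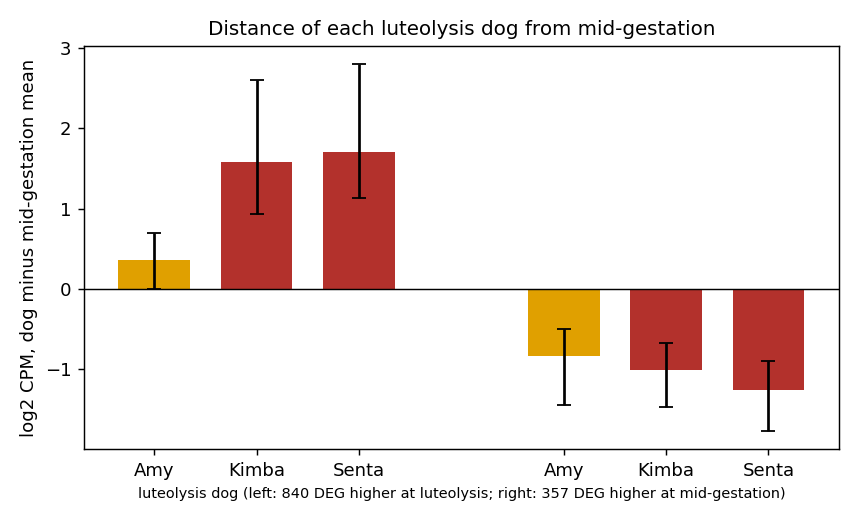
Median distance of each luteolysis dog from the mid-gestation mean on the log2 CPM scale (bars), with the lower and upper quartiles over the genes (whiskers), for DEG higher at luteolysis and DEG higher at mid-gestation. Amy is near the mid-gestation mean in the first set (0.356) and below it with the other dogs in the second (−0.83).

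The genes of smallest p-value on the luteolysis side that did not overlap between groups included PTPN22, SNAP25, CAPG, SNX10, NRIP3, PDE4D and ZPR1. PTPN22, a phosphatase that restrains signalling in lymphocytes, had 3.67, 5.6, 4.73, 3.65 and 2.8 CPM at mid-gestation, whereas luteolysis gave 11.5 CPM in Amy, 123 in Kimba and 238 in Senta (log2 ratio −4.92, SE 0.70, adjusted p = 0.00672). CAPG, which caps actin filaments and is abundant in macrophages, had 14.6, 8.48, 13.5, 20.0 and 17.8 CPM against 46.6 CPM in Amy, 212 in Kimba and 233 in Senta (log2 ratio −3.46, SE 0.43, adjusted p = 0.00672). SNX10, a sorting nexin of endosomes known from osteoclasts and macrophages, had 91.6, 104, 89.3, 105 and 141 CPM against 215 CPM in Amy, 522 in Kimba and 594 in Senta (log2 ratio −2.06, SE 0.26, adjusted p = 0.00672). In all 3 genes Amy was above every mid-gestation dog and well below Kimba and Senta.

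PDE4D, a phosphodiesterase that breaks down cAMP, the second messenger of luteinizing hormone, had 4.46, 1.34, 2.08, 0.992 and 4.06 CPM against 4.95 CPM in Amy, 86.2 in Kimba and 87.5 in Senta (log2 ratio −4.51, SE 0.67, adjusted p = 0.00734). SNAP25, a membrane fusion protein of regulated secretion, was measured at 6.24, 2.67, 6.12, 4.38 and 6.9 CPM and at 27.2 CPM in Amy, 51.2 in Kimba and 116 in Senta (log2 ratio −3.62, SE 0.52, adjusted p = 0.00672). Amy was hardly above the highest mid-gestation dog for PDE4D but several-fold above it for SNAP25. NRIP3 and the zinc finger protein gene ZPR1 followed with log2 ratios of −2.03 (SE 0.27) and −1.41 (SE 0.21). These 7 genes remained DEG with any 1 of the 8 dogs left out.

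Among named DEG with a mean of at least 10 CPM at luteolysis, the largest ratios belonged to ANKRD1, MMP1, DMP1, GFI1 and SPINK5, and 4 of these 5 were at the mid-gestation level in Amy. ANKRD1, a nuclear ankyrin repeat protein induced by mechanical stress, had 0.367, 0.0514, 0, 0 and 0 CPM at mid-gestation, while luteolysis gave 0.0751 CPM in Amy, 109 in Kimba and 51.9 in Senta (log2 ratio −9.27, SE 1.38, adjusted p = 0.00734). For MMP1, interstitial collagenase, the values were 0.0525, 0.514, 0.883, 0.104 and 0.288 CPM against 0.225 CPM in Amy, 322 in Kimba and 280.4 in Senta (log2 ratio −9.13, SE 1.57, adjusted p = 0.0089). GFI1, a transcriptional repressor of blood cell development, had 0.892, 0.257, 0.442, 0.626 and 0.935 CPM against 0.751 CPM in Amy, 163 in Kimba and 195 in Senta (log2 ratio −7.52, SE 1.07, adjusted p = 0.00672). DMP1, a phosphoprotein of mineralized matrix, reached 0 CPM in Amy, 104 in Kimba and 16.2 in Senta, with at most 0.359 CPM at mid-gestation.

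SPINK5, an inhibitor of serine proteases, went the other way within the group. It had 1.89, 2.11, 0, 0.104 and 1.01 CPM at mid-gestation and 458 CPM in Amy, 7.79 in Kimba and 3.65 in Senta. Its log2 ratio was −7.23 with all dogs (adjusted p = 0.0108) and −2.45 without Amy (adjusted p = 0.101), when it was no longer a DEG.

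On the mid-gestation side, CD248, KANK4, SNTB1, LGALS3BP, FMO5, DPH7, SPOCK2 and ADGRG7 had the smallest p-values among DEG without overlap. CD248, or endosialin, a receptor of pericytes and fibroblasts, had 23.5, 12.1, 16.7, 23.2 and 19.1 CPM against 4.5 CPM in Amy, 5.02 in Kimba and 4.58 in Senta (log2 ratio 2.01, SE 0.26, adjusted p = 0.00672). KANK4, which links actin to adhesion sites, had 37.6, 37.4, 46.1, 42.5 and 47.8 CPM against 15.4 CPM in Amy, 18.1 in Kimba and 14.3 in Senta (log2 ratio 1.41, SE 0.19, adjusted p = 0.00672). SNTB1, a syntrophin of the dystrophin complex, was at 87.8, 73.1, 80.9, 71.9 and 65.9 CPM against 35.9 CPM in Amy, 27.6 in Kimba and 18.3 in Senta (log2 ratio 1.48, SE 0.22, adjusted p = 0.00734). The luteolysis dogs spanned less than 1 CPM for CD248 and less than 4 CPM for KANK4.

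LGALS3BP, a secreted galectin-binding glycoprotein, had 276, 256, 218, 201 and 157 CPM against 89 CPM in Amy, 60.1 in Kimba and 59.1 in Senta (log2 ratio 1.68, SE 0.29, adjusted p = 0.0089). Flavin monooxygenase FMO5 had 22.5, 25, 23.2, 22.9 and 29.7 CPM against 13.7 CPM in Amy, 14.7 in Kimba and 9.33 in Senta (log2 ratio 0.97, SE 0.18, adjusted p = 0.0117). DPH7, needed for the diphthamide modification of elongation factor 2, and the adhesion receptor ADGRG7 had log2 ratios of 1.08 (SE 0.20) and 2.59 (SE 0.48). These 8 genes also remained DEG with any 1 dog left out.

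INSL3, the insulin-like peptide made by steroid-producing cells of the gonads, combined a large difference with a high level. Its values were 1074, 1982, 2147, 789 and 1281 CPM at mid-gestation and 230.1 CPM in Amy, 87.8 in Kimba and 53.8 in Senta (log2 ratio 3.55, SE 0.74, adjusted p = 0.0178). The lowest mid-gestation dog was above all luteolysis dogs, and Amy was the highest of these. Without Amy the ratio was 4.36 (adjusted p = 0.00344), while without Senta the adjusted p was 0.129 and the gene was not a DEG.

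MYLK4, a myosin light chain kinase family member, had the largest ratio among named DEG with a mean of at least 10 CPM at mid-gestation, with 4.57, 33.7, 48.6, 18.5 and 5.43 CPM against 1.88 CPM in Amy, 0.0791 in Kimba and 0.058 in Senta (log2 ratio 5.21, SE 1.18, adjusted p = 0.0263). UGT1A6, which conjugates small molecules with glucuronic acid, had 20.7, 33.8, 103, 9.4 and 1.55 CPM against 6.46 CPM in Amy, 1.03 in Kimba and 3.13 in Senta (log2 ratio 3.28, SE 0.98, adjusted p = 0.0697). CCDC172 ranged from 0.262 to 42.6 CPM at mid-gestation and from 0 to 1.57 CPM at luteolysis (log2 ratio 4.25, SE 1.29, adjusted p = 0.0746). CCDC172 was not a DEG without Amy (adjusted p = 0.0859, with p above 0.01). Both UGT1A6 and CCDC172 overlapped between groups and varied widely among the mid-gestation dogs. MYLK4 was not a DEG without Senta (edgeR adjusted p = 0.177) or without Kimba (0.103). An entry named U3, for the small nucleolar RNA, had 2.36, 7.45, 7.26, 36.5 and 2.48 CPM against 0.751 CPM in Amy, 0.791 in Kimba and 0.58 in Senta (log2 ratio 3.97, SE 1.05, adjusted p = 0.0481). Since U3 has near-identical copies, reads could be split among them and its value is uncertain.

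**Figure D3:**
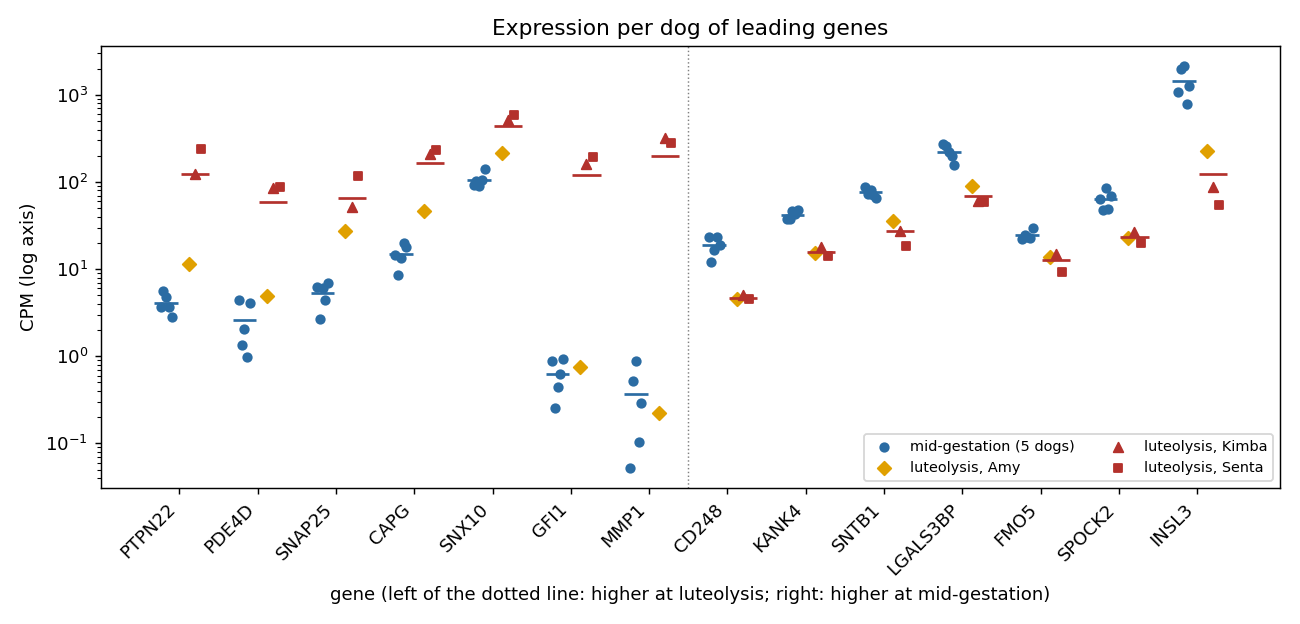
CPM (log axis) of 14 leading genes in each dog, with a point per dog and a line at each group mean. Amy is at the mid-gestation level for GFI1 and MMP1, between the groups for PTPN22, CAPG and SNX10, and with Kimba and Senta for CD248, KANK4 and SPOCK2.

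Gene groups were examined with 26 lists of genes. Names were available for 2958 of the genes tested, those that the study listed for at least 1 of its contrasts on these same dogs. Of these named genes 36.3% were DEG: 25.2% were DEG higher at luteolysis and 11.1% were DEG higher at mid-gestation, with a median log2 ratio of −0.25. List members are thus chosen on the outcome, their counts are no independent evidence of a direction, and they are set beside these shares. Of lists with at least 5 members, the share called was below 36.3% for lysosomes (7.69%), cell cycle (12.5%), cholesterol supply (14.3%) and luteotropic receptors (18.2%). It was also below for endothelial genes (23.8%), prostaglandin genes (25%), macrophage markers (26.7%), antigen presentation (28.6%) and neutrophil markers (33.3%). In the other such lists it was 40% to 66.7%. The lists held 125 DEG among 306 distinct members, of which 109 remained DEG without Amy and 21 without Senta.

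**Figure D4:**
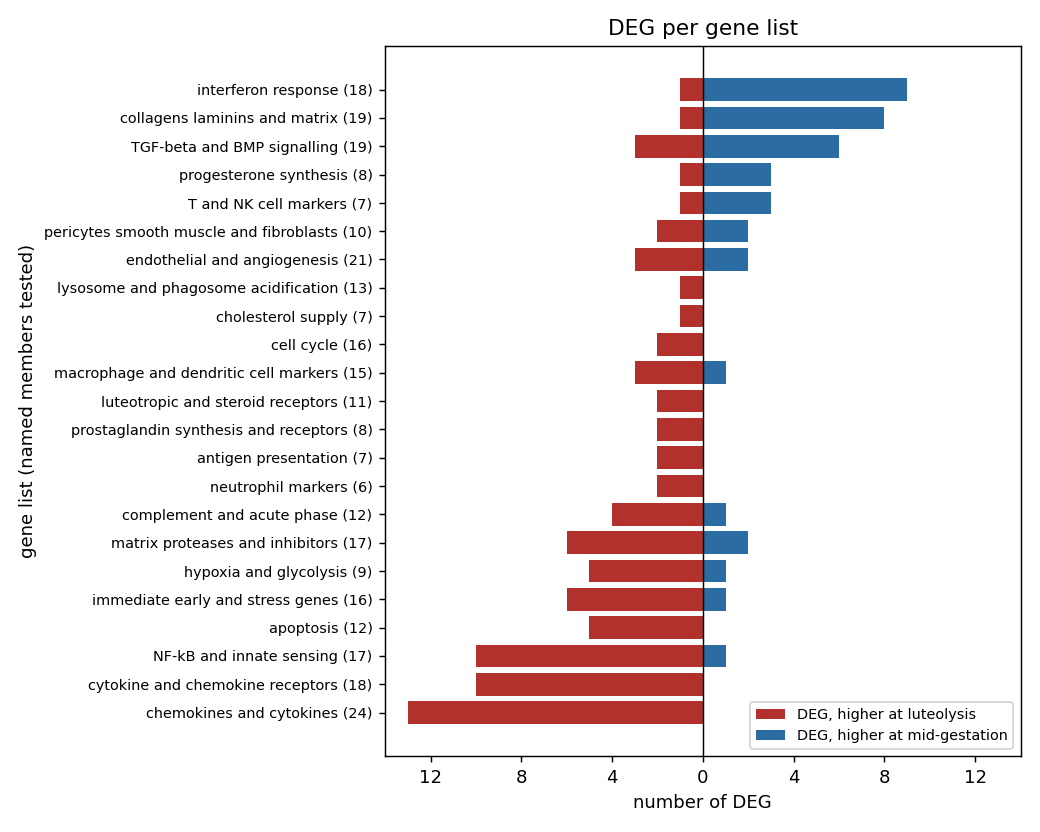
Number of DEG higher at luteolysis (left) and higher at mid-gestation (right) for each of the 23 lists with at least 5 named members tested, whose number is in brackets. Chemokines and cytokines have 13 DEG, all on the luteolysis side, and the interferon response has 9 on the mid-gestation side and 1 on the other.

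Steroid-related genes had positive ratios in 7 of 8 cases. In the list of P4 synthesis 3 of 8 named members were DEG higher at mid-gestation and 1 was higher at luteolysis, with a median log2 ratio of 0.84. STAR, CYP11A1, HSD3B1 and HSD3B2 were not among the 8, so these members do not measure the making of P4 itself. HSD11B2, which inactivates glucocorticoids, had 209.7, 139, 325, 212 and 191 CPM against 139 CPM in Amy, 52.5 in Kimba and 42.7 in Senta (log2 ratio 1.46, SE 0.39, adjusted p = 0.0502), so that Amy was level with the lowest mid-gestation dog. GATA4, a transcription factor of steroidogenic cells, had 110.1, 122, 91.2, 134 and 99.5 CPM against 61.2 CPM in Amy, 88.7 in Kimba and 59.1 in Senta (log2 ratio 0.68, SE 0.20, adjusted p = 0.0671). SULT1E1, which sulphates oestrogens, was at 1.36, 1.28, 0.883, 0.731 and 1.15 CPM and 0 CPM in Amy, 0.395 in Kimba and 0.058 in Senta (log2 ratio 2.61, SE 0.70, adjusted p = 0.0496). The groups did not overlap in these 3 genes. Without Amy GATA4 was not a DEG (adjusted p = 0.102), and without Senta edgeR called 0 of the 8 members, with 4 at an unadjusted p below 0.05.

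HSD3B7, an enzyme of bile acid synthesis from the 3beta-hydroxysteroid dehydrogenase family, went in the opposite direction. It was measured at 65.4, 52.8, 65.4, 61.8 and 55.8 CPM at mid-gestation and 95.7 CPM in Amy, 98.2 in Kimba and 161 in Senta (log2 ratio −0.97, SE 0.21, adjusted p = 0.0193), with all luteolysis dogs above all mid-gestation dogs. CYP17A1, which converts P4 and pregnenolone towards androgens, had 416, 268, 514, 809 and 358 CPM against 334 CPM in Amy, 264 in Kimba and 111 in Senta. Its groups overlapped and it was not a DEG (log2 ratio 1.0, SE 0.54, adjusted p = 0.311). GATA6, at a log2 ratio of 0.49 (SE 0.21), was not a DEG either, but without Amy it was (ratio 0.71, adjusted p = 0.0506).

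Cholesterol supply had 1 DEG. Of 7 named members this was INSIG2, which retains the sterol sensor complex in the endoplasmic reticulum, at 23, 12.6, 14.6, 22.9 and 23.3 CPM against 32.9 CPM in Amy, 33.2 in Kimba and 39.4 in Senta (log2 ratio −0.86, SE 0.21, adjusted p = 0.0324). SCAP, the sterol sensor itself, had 379.8, 381, 612, 427 and 553 CPM against 514 CPM in Amy, 179 in Kimba and 205 in Senta and was not a DEG (log2 ratio 0.65, SE 0.34, adjusted p = 0.291). Its level in Amy was within the mid-gestation range, whereas Kimba and Senta were below it, and without Amy it was a DEG with a ratio of 1.29 (adjusted p = 0.00765).

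Among 11 named luteotropic and steroid receptors 2 were DEG, both higher at luteolysis. The growth hormone receptor GHR had 78, 63.6, 83.8, 79.4 and 119.9 CPM against 104 CPM in Amy, 186 in Kimba and 238 in Senta (log2 ratio −1.05, SE 0.25, adjusted p = 0.0313). IGF1R, the receptor of insulin-like growth factor 1, had 32.4, 20.9, 27.6, 31.9 and 31.5 CPM against 23.9 CPM in Amy, 95.8 in Kimba and 90.0 in Senta (log2 ratio −1.28, SE 0.32, adjusted p = 0.0404), with Amy inside the mid-gestation range. The receptor of prolactin, the main luteotropic hormone in the dog, did not pass the test: PRLR had 70.4, 67.3, 145, 104 and 136 CPM against 74.8 CPM in Amy, 82.9 in Kimba and 95.2 in Senta (log2 ratio 0.31, SE 0.25, adjusted p = 0.537). FSHR (log2 ratio 0.42, SE 0.29, adjusted p = 0.45), ESR1 (log2 ratio 0.99, SE 0.36, adjusted p = 0.138) and the relaxin receptor RXFP1 (log2 ratio 1.36, SE 0.62, adjusted p = 0.232) did not pass it either.

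Of 8 named prostaglandin genes 2 were DEG, PTGIS and PTGES, both higher at luteolysis. PTGIS, prostacyclin synthase, had 113, 63.4, 69.2, 60.1 and 51.1 CPM against 28.8 CPM in Amy, 409 in Kimba and 362 in Senta (log2 ratio −1.90, SE 0.52, adjusted p = 0.054). PTGES, which makes prostaglandin E2, had 34.4, 34.3, 51.3, 37.2 and 25.7 CPM against 44.2 CPM in Amy, 90.1 in Kimba and 163 in Senta (log2 ratio −1.44, SE 0.41, adjusted p = 0.062). Amy was below the mid-gestation range for PTGIS and inside it for PTGES, and neither was a DEG without Senta. PTGS2 and the prostaglandin F2alpha receptor PTGFR could not be paired with an identifier.

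Chemokines and cytokines were the list with the most DEG and also with the most named members tested. Of 24 named members 13 were DEG, all of them higher at luteolysis (3 members had a positive ratio without passing the test), with a median log2 ratio of −1.76. TNFSF9, a costimulatory ligand of T cells, had 0.892, 1.59, 1.2, 2.04 and 1.69 CPM against 4.13 CPM in Amy, 8.22 in Kimba and 13.3 in Senta (log2 ratio −2.52, SE 0.49, adjusted p = 0.0135) and did not overlap. CSF1, the growth factor of macrophages, had 28.9, 17.4, 28.1, 29.9 and 24.8 CPM against 13.1 CPM in Amy, 253 in Kimba and 308 in Senta (log2 ratio −2.89, SE 0.59, adjusted p = 0.0163). Amy was below every mid-gestation dog for CSF1, and without Amy its ratio was −3.45 (adjusted p = 5.66e-06).

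The chemokines that attract monocytes, CCL2, CCL3 and CCL13, all had their high values in Kimba and Senta. CCL2 had 39.5, 52.5, 98.9, 186 and 56.2 CPM against 35.1 CPM in Amy, 593 in Kimba and 818 in Senta (log2 ratio −2.48, SE 0.76, adjusted p = 0.0772). CCL3 had 0.63, 3.34, 0.757, 6.63 and 0.575 CPM against 0.0751 CPM in Amy, 127 in Kimba and 183 in Senta (log2 ratio −5.44, SE 1.21, adjusted p = 0.0241), and CCL13 reached 0.0751 CPM in Amy, 19.5 in Kimba and 27.5 in Senta (log2 ratio −4.66, SE 1.09, adjusted p = 0.0323). CCL20, which attracts dendritic cells, had 0 reads in the 5 mid-gestation dogs and in Amy but 138 reads in Kimba and 70 in Senta. With a floor of 3 counts over the mid-gestation group, the luteolysis mean was at least 107-fold higher. CCL20, CCR7, CD70 and the further list members named below outside the rule were chosen after their values were seen.

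IL1B, an early inflammatory cytokine, was a DEG at low levels, with 0.105, 1.49, 0.631, 2.04 and 0.395 CPM against 0 CPM in Amy, 7.27 in Kimba and 18.8 in Senta (log2 ratio −3.22, SE 1.01, adjusted p = 0.0858). CXCL8, the main attractant of neutrophils, had 2.89, 7.71, 5.93, 177 and 28.1 CPM against 86 CPM in Amy, 311 in Kimba and 282 in Senta and was not a DEG (log2 ratio −2.35, SE 1.02, adjusted p = 0.211). One mid-gestation dog, Gold, was above Amy. IL1B stayed a DEG in 1 of the 8 fits with 1 dog left out, and CCL2 in 2. Without Amy 13 members were DEG, and without Senta edgeR called 0 of the 24, with 12 at an unadjusted p below 0.05.

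Receptors of cytokines and chemokines had 10 DEG among 18 named members, all higher at luteolysis, and without Senta 6 members were DEG. IL10RA, the receptor subunit of the anti-inflammatory interleukin 10, was high in all 3 luteolysis dogs, at 13.4 CPM in Amy, 12.3 in Kimba and 20.5 in Senta against 6.87, 3.91, 5.05, 5.48 and 5.5 CPM (log2 ratio −1.52, SE 0.27, adjusted p = 0.00977). CSF2RA, the alpha chain of the GM-CSF receptor, had 1.1, 0.462, 1.89, 2.19 and 1.44 CPM against 2.78 CPM in Amy, 20.5 in Kimba and 15.9 in Senta (log2 ratio −3.21, SE 0.53, adjusted p = 0.0089). TNFRSF12A, the receptor of TWEAK, had 9.55, 5.75, 4.92, 10.1 and 4.67 CPM against 11.7 CPM in Amy, 88.2 in Kimba and 147 in Senta (log2 ratio −3.56, SE 0.62, adjusted p = 0.00927). These 3 genes did not overlap between groups. CCR7, which guides dendritic cells and lymphocytes to lymph nodes, had 1.21, 0.462, 1.64, 0.731 and 0.719 CPM against 0.676 CPM in Amy, 207 in Kimba and 198 in Senta (log2 ratio −7.17, SE 1.26, adjusted p = 0.00947), with Amy inside the mid-gestation range. OSMR, the receptor of oncostatin M, had a log2 ratio of −1.25 (SE 0.39, adjusted p = 0.0827). It stayed a DEG in 2 of the 8 fits with 1 dog left out.

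Most markers of leukocyte classes did not pass the test, and those that did were split between the groups. Of 15 named macrophage and dendritic cell markers 3 were DEG higher at luteolysis (CAPG, SNX10 and LYZ) and 1 higher at mid-gestation (CD83), and the summed level of the list was 1276 to 2062 CPM at mid-gestation and 1565 to 2646 CPM at luteolysis. CAPG and SNX10 are also among the smallest p-values above. The list was written with earlier results known, so these genes are no separate support. SNX10 alone gave 215 of the 1565 CPM summed in Amy, 522 of 2338 in Kimba and 594 of 2646 in Senta. LYZ, lysozyme, had 91.6, 63, 53.4, 60.0 and 40.3 CPM against 54.6 CPM in Amy, 288 in Kimba and 414 in Senta (log2 ratio −2.03, SE 0.43, adjusted p = 0.0188). CD83, a surface protein of mature dendritic cells, had 84, 137, 99.9, 91.3 and 72.1 CPM against 65.3 CPM in Amy, 28.6 in Kimba and 46 in Senta (log2 ratio 1.06, SE 0.26, adjusted p = 0.039). Among the members that did not pass the test, TYROBP had 17.6, 11.3, 21.4, 16.4 and 12.9 CPM against 16 CPM in Amy, 24.7 in Kimba and 32.8 in Senta (log2 ratio −0.62, SE 0.34, adjusted p = 0.321). AIF1 had a log2 ratio of −0.33 (SE 0.33), and the cathepsin gene CTSB one of −0.16 (SE 0.24). Only 15 of the 38 markers listed could be paired and tested, so these genes do not stand for the whole class. No single library had this list at 0, and the part of macrophage number in the results above was not tested.

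Neutrophil markers had 2 DEG of 6, both higher at luteolysis, at summed levels of 17.3 to 51.0 CPM at mid-gestation and 16.1 to 118 CPM at luteolysis. TREM1, an amplifier of inflammation on myeloid cells, had 1.57, 0.411, 1.77, 0.992 and 0.791 CPM against 0.375 CPM in Amy, 9.09 in Kimba and 10.4 in Senta (log2 ratio −2.59, SE 0.71, adjusted p = 0.0528). The granulocyte growth factor receptor CSF3R was highest in Kimba at 48.6 CPM but overlapped (log2 ratio −2.11, SE 0.82, adjusted p = 0.161). Without Amy CSF3R was a DEG (ratio −2.65, adjusted p = 0.0183), while without Kimba its ratio was −0.45. Amy was below the mid-gestation range for TREM1 and CSF3R, and the part of neutrophil number in the result was not tested.

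Within the 7 named T and NK cell markers, with summed levels of 13.4 to 30.0 CPM at mid-gestation and 8.48 to 211 CPM at luteolysis, GZMB moved against the 3 other DEG. The high sums at luteolysis were almost all GZMB, which gave 206 of 211 CPM in Kimba and 109.6 of 114 CPM in Senta. Of the 7 members 6 had a positive ratio. CD2, CD7 and GZMA were DEG higher at mid-gestation without overlap. CD2, an adhesion receptor of T and NK cells, had 7.45, 6.94, 15.6, 7.15 and 6.54 CPM against 4.2 CPM in Amy, 1.94 in Kimba and 2.26 in Senta (log2 ratio 1.65, SE 0.41, adjusted p = 0.0364). GZMA, granzyme A, had 1.26, 2.16, 2.9, 0.992 and 1.47 CPM against 0.826 CPM in Amy, 0.514 in Kimba and 0.174 in Senta (log2 ratio 1.8, SE 0.52, adjusted p = 0.0631), and CD7 had a ratio of 2.37 (SE 0.55) at levels no higher than 1.42 CPM. GZMB, granzyme B of cytotoxic granules, was instead higher at luteolysis, at 2.2, 2.93, 2.46, 1.15 and 1.55 CPM against 0.676 CPM in Amy, 206 in Kimba and 109.6 in Senta (log2 ratio −5.68, SE 0.96, adjusted p = 0.0089). The T cell receptor chain CD3E had 0.787, 1.28, 4.04, 3.08 and 0.827 CPM against 0.676 CPM in Amy, 0.791 in Kimba and 0.29 in Senta and was not a DEG (log2 ratio 1.74, SE 0.69, adjusted p = 0.172). GZMB remained a DEG with any 1 dog left out, and CD2, CD7 and GZMA were not DEG without Senta.

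Both named B and plasma cell markers, IRF4 and POU2AF1, were DEG higher at luteolysis, at summed levels of 0.442 to 1.57 CPM at mid-gestation and 0.826 to 8.22 CPM at luteolysis. IRF4, a transcription factor also found in activated T cells and macrophages, had 0.367, 1.18, 0.442, 1.57 and 0.324 CPM against 0.826 CPM in Amy, 7.59 in Kimba and 3.07 in Senta (log2 ratio −2.31, SE 0.67, adjusted p = 0.0662). POU2AF1, a coactivator of B cells, was at 0.157, 0, 0, 0 and 0.144 CPM and 0 CPM in Amy, 0.633 in Kimba and 1.51 in Senta (log2 ratio −3.33, SE 1.09, adjusted p = 0.0977).

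MHC class II genes, which present antigen to helper T cells, were high in Amy as well. Of 7 named genes of antigen presentation 2 were DEG, both higher at luteolysis. DLA-DQA had 588, 188, 499, 208 and 327 CPM against 1951 CPM in Amy, 893 in Kimba and 2045 in Senta (log2 ratio −2.17, SE 0.41, adjusted p = 0.0129), without overlap. DLA-DRB1 had 1834, 1094, 1877, 904 and 802 CPM against 4572 CPM in Amy, 1630.4 in Kimba and 3592 in Senta (log2 ratio −1.33, SE 0.35, adjusted p = 0.0466), with Amy as the highest dog and Kimba inside the mid-gestation range. Without Amy DLA-DQA was a DEG (adjusted p = 0.00825), while DLA-DRB1 was not (adjusted p = 0.0774, with p above 0.01). These genes are polymorphic and have near-identical relatives, so that read assignment may differ between dogs.

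Complement and acute phase genes had 4 DEG higher at luteolysis and 1 higher at mid-gestation among 12. CD55, which protects cells from complement by breaking up its convertases, had 82.8, 71.8, 111, 79.4 and 71.3 CPM against 189.5 CPM in Amy, 2290.2 in Kimba and 2300.1 in Senta (log2 ratio −4.26, SE 0.68, adjusted p = 0.00836). CD59, which blocks the membrane attack complex, had 378, 274, 340.3, 282 and 445 CPM against 574 CPM in Amy, 939 in Kimba and 1137 in Senta (log2 ratio −1.36, SE 0.27, adjusted p = 0.0144). C5AR2, a receptor of complement fragment C5a, had 12.1, 12.9, 17.6, 16.4 and 23.8 CPM against 23.9 CPM in Amy, 155 in Kimba and 134 in Senta (log2 ratio −2.65, SE 0.46, adjusted p = 0.00945). In all 3 the groups did not overlap. C1R, a protease of the classical pathway, was the DEG higher at mid-gestation (log2 ratio 0.89, SE 0.27, adjusted p = 0.0733), though not without Amy (adjusted p = 0.106). C1QC of the same pathway had 213, 123, 315, 172 and 161 CPM against 156 CPM in Amy, 62.3 in Kimba and 99.4 in Senta and did not pass the test (log2 ratio 0.90, SE 0.44, adjusted p = 0.266). SAA1 could not be paired with an identifier.

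NF-kB and innate sensing genes had 10 DEG higher at luteolysis and 1 higher at mid-gestation among 17, with a median log2 ratio of −0.96. RELA, the p65 subunit of NF-kB, had 52.3, 40.1, 51.5, 48.3 and 51.1 CPM against 40.8 CPM in Amy, 180.2 in Kimba and 198 in Senta (log2 ratio −1.52, SE 0.35, adjusted p = 0.0284). TRAF3, an adaptor that holds back the noncanonical pathway, had 5.4, 4.98, 6.56, 5.27 and 8.16 CPM against 8.03 CPM in Amy, 20.1 in Kimba and 27.8 in Senta (log2 ratio −1.62, SE 0.38, adjusted p = 0.0316). NFKBIA, the inhibitor that NF-kB itself induces, had 86.7, 93.6, 104, 165 and 91.9 CPM against 93.2 CPM in Amy, 219 in Kimba and 394 in Senta (log2 ratio −1.12, SE 0.34, adjusted p = 0.0712). Amy was inside the mid-gestation range in these 3 genes. NFKBIA stayed a DEG in 2 of the 8 fits with 1 dog left out. Without Senta edgeR called 0 of the 17, with 11 at an unadjusted p below 0.05, and with the 8 dogs alone in the model 1 was a DEG.

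Of 12 named apoptosis genes 5 (41.7%) were DEG, all higher at luteolysis, beside 36.3% of all named genes. Without Senta edgeR called 0 of the 12, with 5 at an unadjusted p below 0.05. RIPK1 and FADD, which join death receptors to caspases, did not overlap between groups, with log2 ratios of −0.64 (SE 0.19) and −1.12 (SE 0.34). BIK, which promotes apoptosis, had 0.577, 0.668, 0.189, 0.365 and 0.252 CPM against 0.45 CPM in Amy, 3.32 in Kimba and 3.36 in Senta (log2 ratio −2.53, SE 0.63, adjusted p = 0.0379). BCL2A1, which counters it, had 3.57, 6.27, 4.92, 7.05 and 4.35 CPM against 4.05 CPM in Amy, 18.9 in Kimba and 37.9 in Senta (log2 ratio −1.96, SE 0.50, adjusted p = 0.0421). MCL1, another protector, had 201, 196, 206, 358 and 257 CPM against 208 CPM in Amy, 444 in Kimba and 538 in Senta and was not a DEG (log2 ratio −0.70, SE 0.27, adjusted p = 0.16), whereas without Amy it was (ratio −1.02, adjusted p = 0.00931).

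The interferon-induced genes that passed the test were, with 1 exception, higher at mid-gestation. Of 18 named members 9 were DEG higher at mid-gestation and 1, CXCL10, was higher at luteolysis, with a median log2 ratio of 1.22 and summed levels of 456.8 to 786.2 CPM at mid-gestation against 286.6 to 336.8 CPM at luteolysis. IFI44L had 83.6, 32.3, 51.1, 55.5 and 42.9 CPM against 12.7 CPM in Amy, 17.6 in Kimba and 18.1 in Senta (log2 ratio 1.72, SE 0.32, adjusted p = 0.0128). IFIT2, which binds foreign RNA, had 14.2, 5.5, 13.8, 8.09 and 9.56 CPM against 3.9 CPM in Amy, 1.9 in Kimba and 3.3 in Senta (log2 ratio 1.76, SE 0.37, adjusted p = 0.0195). MX1, an antiviral GTPase, had 111, 23.8, 46.5, 67.3 and 48 CPM against 10.9 CPM in Amy, 19.6 in Kimba and 14.3 in Senta (log2 ratio 1.98, SE 0.55, adjusted p = 0.0562). No luteolysis dog reached the lowest mid-gestation dog in these 3 genes, and Amy was low with the others.

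IRF7, the transcription factor that amplifies interferon production, had 3.04, 3.34, 3.03, 2.51 and 1.83 CPM against 0.3 CPM in Amy, 0.198 in Kimba and 0.927 in Senta (log2 ratio 2.53, SE 0.77, adjusted p = 0.0772). MX2 (log2 ratio 1.82, SE 0.49, adjusted p = 0.0496) and RSAD2 (log2 ratio 3.32, SE 1.04, adjusted p = 0.0844) were DEG without overlap, while ISG15, without overlap too, did not pass the test (log2 ratio 2.15, SE 0.80, adjusted p = 0.147). Without Amy 5 members were DEG higher at mid-gestation, and without Senta 1. MX1 (adjusted p = 0.0726, with p above 0.01), IRF7 (0.102) and RSAD2 (0.101) were among those not called without Amy. With the 8 dogs alone in the model 8 of the 18 members were DEG higher at mid-gestation. TRIM25, an activator of RNA sensing, had a log2 ratio of 0.68 (SE 0.27) and was not a DEG, but without Amy it was (0.92, adjusted p = 0.0455).

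**Figure D5:**
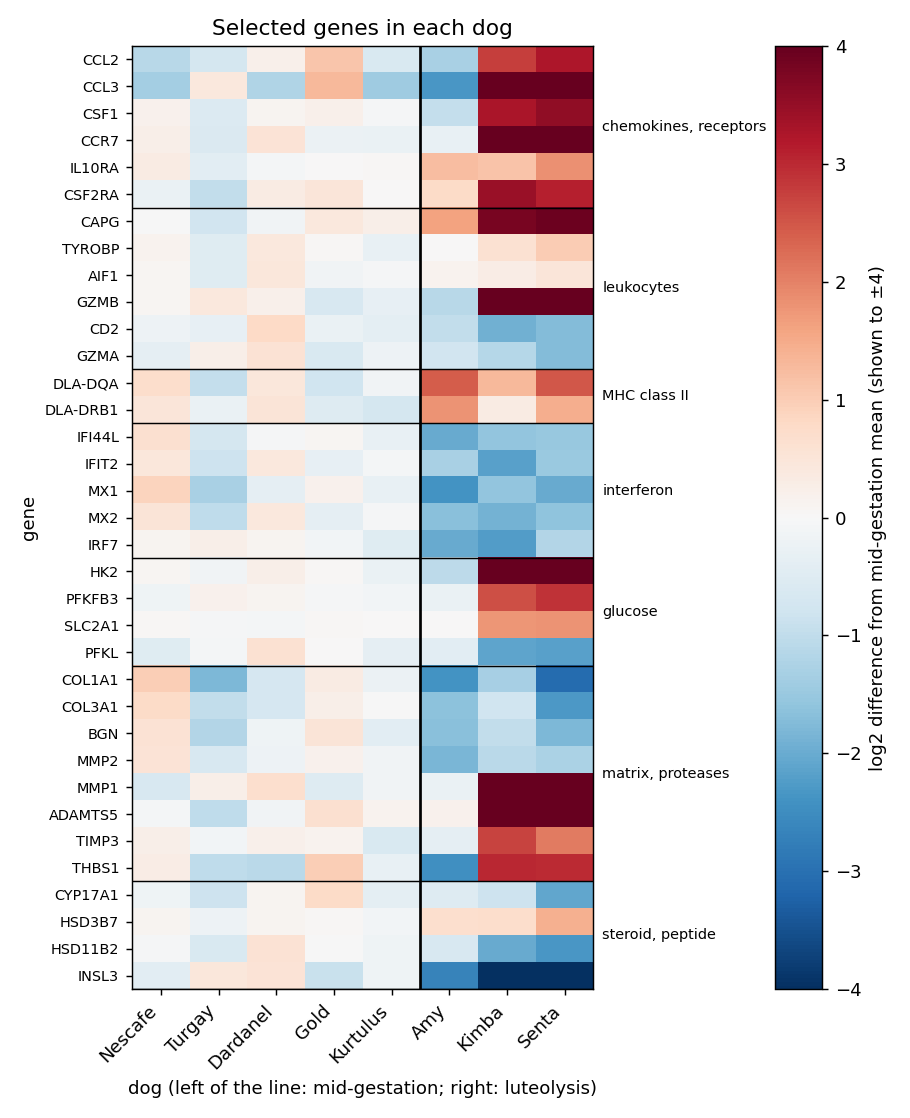
Log2 difference of each dog from the mid-gestation mean (with 0.5 CPM added to each value, colours shown to ±4) for selected genes in the 5 mid-gestation and 3 luteolysis dogs. Interferon genes and collagens are low in all 3 luteolysis dogs, whereas HK2, CCR7, MMP1 and GZMB are high in Kimba and Senta and below the mid-gestation mean in Amy.

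The matrix genes that passed the test were, with 1 exception, higher at mid-gestation. Of 19 named collagens, laminins and other matrix genes 8 were DEG in that direction and 1 in the other, 17 had a positive ratio, and the median was 1.18. COL1A1, the main fibrillar collagen chain, had 4144, 605, 1305, 2657 and 1784 CPM against 399.6 CPM in Amy, 832 in Kimba and 249 in Senta (log2 ratio 2.09, SE 0.60, adjusted p = 0.0641). Its groups overlapped between Turgay and Kimba. BGN, the proteoglycan biglycan, had 607, 179, 355, 577 and 298 CPM against 125 CPM in Amy, 203 in Kimba and 117 in Senta (log2 ratio 1.44, SE 0.33, adjusted p = 0.0284). SPOCK2, a calcium-binding proteoglycan, had 64.6, 48.3, 85.6, 49.5 and 68.3 CPM against 22.5 CPM in Amy, 26.8 in Kimba and 20.0 in Senta (log2 ratio 1.45, SE 0.27, adjusted p = 0.0121).

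COL3A1 was a DEG at an adjusted p of 0.0962, and COL1A2, the most abundant named member, was not (log2 ratio 1.30, SE 0.43, adjusted p = 0.104). DESeq2 did call COL1A2 (adjusted p = 0.0196). ECM2 was not a DEG either (log2 ratio 0.72, SE 0.35, adjusted p = 0.269). TNC, tenascin C of remodelling tissue, was the member higher at luteolysis, at 5.61, 5.65, 1.33, 9.29 and 7.94 CPM against 28.1 CPM in Amy, 48.6 in Kimba and 15.5 in Senta (log2 ratio −2.36, SE 0.59, adjusted p = 0.0395). Amy was between Kimba and Senta for TNC and without overlap with mid-gestation. Without Amy 4 members were DEG higher at mid-gestation, with COL1A1 (adjusted p = 0.0812, with p above 0.01) and COL3A1 (0.119) not called, and without Senta 1.

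Proteases and their inhibitors split by gene. Of 17 named members 6 were DEG higher at luteolysis and 2 higher at mid-gestation. ADAMTS5, which cleaves aggrecan and versican, had 3.46, 1.54, 3.28, 5.9 and 4.03 CPM against 4.2 CPM in Amy, 297 in Kimba and 213 in Senta (log2 ratio −5.55, SE 0.88, adjusted p = 0.00809). PLAUR, the receptor of urokinase, had 4.83, 3.34, 6.12, 10.3 and 3.38 CPM against 8.18 CPM in Amy, 51.8 in Kimba and 57.8 in Senta (log2 ratio −2.81, SE 0.47, adjusted p = 0.0089). TIMP3, a matrix-bound inhibitor of these enzymes, had 654, 524, 645, 614 and 366 CPM against 432 CPM in Amy, 3689.8 in Kimba and 2373 in Senta (log2 ratio −1.95, SE 0.47, adjusted p = 0.0332). Amy was inside the mid-gestation range in all 3. In contrast, MMP2, gelatinase A of stromal cells, was lower in all 3 luteolysis dogs, at 337, 145, 198, 257 and 208 CPM against 64.6 CPM in Amy, 107 in Kimba and 95.1 in Senta (log2 ratio 1.36, SE 0.28, adjusted p = 0.0159), as was ADAMTSL2 (log2 ratio 1.75, SE 0.36, adjusted p = 0.0176).

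Stromal and vascular markers did not share a direction. Of 10 named pericyte, smooth muscle and fibroblast genes CD248 and TCF21 were higher at mid-gestation and FAP and MYLK at luteolysis. FAP, fibroblast activation protein, had 54.3, 36.7, 51.3, 46.5 and 46.8 CPM against 43.9 CPM in Amy, 170.0 in Kimba and 167 in Senta (log2 ratio −1.43, SE 0.32, adjusted p = 0.0254). TCF21, a transcription factor of stromal cells, had 29.5, 25.1, 21.6, 72.6 and 21.9 CPM against 7.43 CPM in Amy, 17 in Kimba and 15.2 in Senta (log2 ratio 1.37, SE 0.44, adjusted p = 0.0931). The intermediate filament gene VIM was not a DEG (log2 ratio 0.96, SE 0.32, adjusted p = 0.11). Without Amy TCF21 was not a DEG (adjusted p = 0.148) and VIM was (ratio 1.30, adjusted p = 0.0208).

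Of 21 named endothelial and angiogenesis genes 2 were DEG higher at mid-gestation and 3 higher at luteolysis. ANGPTL4, an inhibitor of lipoprotein lipase, had 54.2, 99.7, 132, 160.2 and 56.2 CPM against 46.5 CPM in Amy, 38.1 in Kimba and 27.9 in Senta (log2 ratio 1.42, SE 0.42, adjusted p = 0.0705). NOS3, endothelial nitric oxide synthase, had 35, 15.7, 35.6, 28.6 and 38.3 CPM against 33.1 CPM in Amy, 97.1 in Kimba and 109.7 in Senta (log2 ratio −1.38, SE 0.39, adjusted p = 0.0601). THBS1, an inhibitor of angiogenesis, had 214, 86.1, 82.7, 349 and 141 CPM against 31.5 CPM in Amy, 1412 in Kimba and 1382 in Senta (log2 ratio −2.43, SE 0.79, adjusted p = 0.0948), with Amy below every mid-gestation dog. It stayed a DEG in 2 of the 8 fits with 1 dog left out.

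TGF-beta and BMP genes had 6 DEG higher at mid-gestation and 3 higher at luteolysis among 19. SKI, a repressor of SMAD proteins, had 107, 60.5, 86.6, 94.2 and 70.6 CPM against 44.7 CPM in Amy, 55.7 in Kimba and 49 in Senta (log2 ratio 0.75, SE 0.18, adjusted p = 0.0307), and LTBP4, which stores latent TGF-beta in the matrix, had 393, 92.1, 203, 316 and 158 CPM against 29.7 CPM in Amy, 100.3 in Kimba and 28.8 in Senta (log2 ratio 2.13, SE 0.55, adjusted p = 0.0437). The receptor TGFBR1 had 139, 104, 119.6, 109.6 and 126 CPM against 114 CPM in Amy, 307 in Kimba and 439 in Senta (log2 ratio −1.26, SE 0.29, adjusted p = 0.0272), and the inhibitory SMAD7 had 6.61, 2.21, 5.62, 5.64 and 7.84 CPM against 3.83 CPM in Amy, 28.4 in Kimba and 35.9 in Senta (log2 ratio −2.03, SE 0.51, adjusted p = 0.0395). LTBP2, a relative of LTBP4, was higher in all 3 luteolysis dogs (log2 ratio −2.32, SE 0.63, adjusted p = 0.0528). FSTL1 was not a DEG (log2 ratio 0.57, SE 0.21, adjusted p = 0.133). Without Amy 8 members were higher at mid-gestation and 9 at luteolysis, and without Senta edgeR called 0 of the 19, with 14 at an unadjusted p below 0.05.

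Genes of hypoxia and glycolysis had 5 DEG higher at luteolysis and 1 higher at mid-gestation among 9 named members. This share of 66.7% stood beside 36.3% of all named genes. Only 9 of the 33 genes listed could be paired and tested, and without Senta 2 were DEG. HK2, the inducible hexokinase, had 1.73, 1.39, 1.96, 1.67 and 1.26 CPM against 0.525 CPM in Amy, 53.7 in Kimba and 44.7 in Senta (log2 ratio −4.37, SE 0.85, adjusted p = 0.014). PFKFB3, which makes the activator of phosphofructokinase, had 41, 52.2, 50.4, 44.8 and 43.4 CPM against 38.1 CPM in Amy, 277 in Kimba and 345 in Senta (log2 ratio −2.25, SE 0.43, adjusted p = 0.0128). SLC2A1, the glucose transporter GLUT1, had 45.1, 42.3, 40.8, 45 and 43.8 CPM against 44.3 CPM in Amy, 149.9 in Kimba and 153 in Senta (log2 ratio −1.41, SE 0.28, adjusted p = 0.0146). The 5 mid-gestation dogs were within 5 CPM of each other for SLC2A1, and Amy was among them.

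CA12, a carbonic anhydrase induced by hypoxia, was higher in all 3 luteolysis dogs, at 23.4, 21.2, 14.3, 10.4 and 27.2 CPM against 36.7 CPM in Amy, 172 in Kimba and 126 in Senta (log2 ratio −2.53, SE 0.43, adjusted p = 0.0089). PFKL, the liver type of phosphofructokinase, was the DEG higher at mid-gestation, at 192, 255, 410.4, 271 and 207 CPM against 201 CPM in Amy, 61.1 in Kimba and 58.4 in Senta (log2 ratio 1.32, SE 0.40, adjusted p = 0.0746). TPI1, triosephosphate isomerase, had 695, 695, 800.1, 685 and 715 CPM against 956 CPM in Amy, 391 in Kimba and 633 in Senta and was not a DEG (log2 ratio 0.12, SE 0.30, adjusted p = 0.863).

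Immediate early and stress genes included 6 DEG higher at luteolysis of 16. SOD2, the superoxide dismutase of mitochondria, was high in all 3 dogs, at 304, 341, 426, 437 and 579 CPM against 836 CPM in Amy, 1491 in Kimba and 1796 in Senta (log2 ratio −1.72, SE 0.27, adjusted p = 0.00809). JUN, a subunit of the transcription factor AP-1, was the 1 DEG higher at mid-gestation, at 58.7, 86.6, 37.9, 227 and 53.5 CPM against 18 CPM in Amy, 18.5 in Kimba and 28.7 in Senta (log2 ratio 2.09, SE 0.52, adjusted p = 0.0392). Gold was the highest dog for JUN, and all mid-gestation dogs were above all luteolysis dogs. JUN was not a DEG without Senta (edgeR adjusted p = 0.157) or without Kimba (0.139). GPX3 (log2 ratio 0.51, SE 0.46, adjusted p = 0.578) and the transcription factor YY1 (log2 ratio 0.41, SE 0.18, adjusted p = 0.22) were not DEG.

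Among 16 named cell cycle genes 2 were DEG, both higher at luteolysis. RRM2, a subunit of ribonucleotide reductase, had 3.88, 6.83, 2.59, 6.84 and 4.13 CPM against 4.13 CPM in Amy, 50.9 in Kimba and 64.7 in Senta (log2 ratio −3.04, SE 0.59, adjusted p = 0.0139). CDKN1A, which encodes the cell cycle inhibitor p21, had 80.6, 46.3, 129, 68.6 and 88.7 CPM against 68 CPM in Amy, 1061 in Kimba and 1779 in Senta (log2 ratio −3.55, SE 0.79, adjusted p = 0.0244). For both Amy was inside the mid-gestation range, and neither was a DEG without Senta (edgeR adjusted p = 0.129 for RRM2 and 0.197 for CDKN1A). CCNA2, cyclin A2, had a ratio of 0.15 (SE 0.41) and was not a DEG, and its sign turned without Kimba or without Turgay.

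Of 13 named genes of lysosomes and acidification 1 was a DEG, ATP6V1C1, a subunit of the proton pump, at 47.4, 57.6, 61, 63.1 and 56.2 CPM against 69.4 CPM in Amy, 101 in Kimba and 132 in Senta (log2 ratio −0.82, SE 0.20, adjusted p = 0.0353). PSAP, the precursor of lysosomal saposins, was not a DEG (log2 ratio 0.53, SE 0.24, adjusted p = 0.219). The haemoglobin entry HBA, the single named red blood cell gene, ranged from 1.45 to 58.3 CPM at mid-gestation and from 6.80 to 38.7 CPM at luteolysis and was not a DEG. SERPING1, the inhibitor of complement C1, did not pass the test (log2 ratio 0.54, SE 0.25, adjusted p = 0.24).

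The luteolysis dogs were also set beside the antigestagen-treated dogs, in which P4 action was blocked at mid-gestation. Of 14473 genes tested, 687 (4.75%) were DEG of luteolysis over antigestagen, and the same 3 luteolysis dogs enter both comparisons. INSL3 averaged 1392 ± 1177 CPM after antigestagen (mean ± SD, n = 5), 1455 ± 586 at mid-gestation and 124 ± 93.5 at luteolysis (log2 ratio of luteolysis over antigestagen −3.49, edgeR adjusted p = 0.0306). CD248 averaged 19.3 ± 4.59 CPM after antigestagen and was lower at luteolysis by a log2 ratio of −2.04 (edgeR adjusted p = 0.0168). JUN averaged 111 ± 27.6 CPM after antigestagen, again above luteolysis (−2.35, edgeR adjusted p = 0.04). Without Senta 6 of 14507 genes (0.0414%) were DEG of luteolysis over antigestagen, and CD248 (−2.03, edgeR adjusted p = 0.041) was the only 1 of INSL3, CD248, JUN, MMP1, GZMB and HK2 among them. Without Kimba INSL3 (adjusted p = 0.111) and JUN (0.131) were not DEG of this comparison either.

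MMP1, GZMB and HK2, high in Kimba and Senta, were higher at luteolysis than after antigestagen with all dogs in the model. MMP1 averaged 1.12 ± 1.33 CPM there (7.30, edgeR adjusted p = 0.0246), GZMB 2.89 ± 1.32 CPM (5.15, edgeR adjusted p = 0.0186) and HK2 1.86 ± 1.18 CPM (4.11, edgeR adjusted p = 0.0284). Intermediate means were seen for C5AR2, at 51.8 ± 25.4 CPM, and for HSD3B7, at 88.8 ± 21.7 CPM, and neither differed between luteolysis and antigestagen beyond the threshold (1.01, adjusted p = 0.26, and 0.41, adjusted p = 0.307). CD55 and CDKN1A, also high in Kimba and Senta, averaged 265 ± 196 and 201 ± 155 CPM after antigestagen. CYP17A1 had the lowest of its 3 means after antigestagen, 97.9 ± 67.7 CPM, and its ratio of luteolysis over antigestagen was 1.27 (adjusted p = 0.2). For the interferon gene IFI44L the mean after antigestagen was 34.6 ± 10.2 CPM, between mid-gestation and luteolysis, with an adjusted p of 0.0857.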

How the data were processed

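The data are RNA-Seq counts, 1 library for each of 15 dogs. Per the labels and the study's methods, the authors aligned reads to CanFam3.1 with STAR 2.5.1b, assigned them to Ensembl genes with featureCounts and deposited the raw counts, not normalized, with the largest values rounded to 4 significant digits. The kit does not mark strand, so overlapping antisense genes cannot be told apart.

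The model held every gene averaging 10 or more reads in some group. It was fitted to all 15 dogs, including the 2 non-pregnant ones at luteal regression (R 4.3.3, edgeR 4.0.16, TMM, 1 mean per group). Mid-gestation over luteolysis was tested by the quasi-likelihood test on 14669 genes. The SE is the absolute log2 ratio divided by the square root of F. Alternatives used DESeq2 1.42.0, limma 3.58.1, other scalings, filters and thresholds, the 8 dogs alone, and each dog left out. In simulated counts for this contrast (14459 genes, 50 changed per fold size), 46% of 2-fold, 88% of 4-fold and 98% of 8-fold changes were recovered, with 16 false calls. Each gene was drawn independently there, and changes were placed only in genes above 1 CPM. No simulated dog stood apart from its group across genes as Amy does, so these rates need not hold for the real counts.

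Groups follow the labels. For Nescafe, the title and condition were used, since the description gives another group number. Names come from the study's own gene lists, and no genome or sequence was used. Named genes are the 8 DEG of smallest p-value per direction without overlap, the 5 of largest ratio per direction with at least 10 CPM, per list the 2 DEG of smallest p-value and the most abundant member, and 26 fixed genes, of which 15 could be paired. Some genes that the rule names are not reported here. Genes and lists were chosen with earlier results of these data known. Labels do not say which dogs shared a collection site or run.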

Additional observations from a re-analysis of the deposited data

Results flagged for a closer look

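Among the 5 mid-gestation dogs, 1 dog lay apart from the other 4 by Dixon's 95% limit (0.71 of the range) in 11 of 140 genes examined, and chance alone gives about 1 in 20. Dardanel was high for CD2, at 15.6 CPM against 6.54 to 7.45 in the others, for CTSB, at 791 against 505 to 545 CPM, and for TPI1, at 800 against 685 to 715 CPM. It was low for CXCL10, at 1.89 against 3.13 to 3.77 CPM, and for TNC, at 1.33 against 5.61 to 9.29 CPM. Gold was high for NFKBIA, at 165 against 86.7 to 104 CPM, and for TCF21, at 72.6 against 21.6 to 29.5 CPM. Turgay was low for GPX3, at 820 against 1350 to 1600 CPM, and for SMAD7, at 2.21 against 5.62 to 7.84 CPM. Nescafe had 0.367 CPM for ANKRD1 against at most 0.0514 CPM, and Kurtulus had 0.108 CPM for CD70 where the other dogs had 0, which are few reads. The cause of these values was not tested.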

How the results depend on the processing

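No paired analysis was made, since no dog was in more than 1 group and the labels name no pairs. Numbers of DEG were 3220 with limma-voom and quality weights (1414 higher at mid-gestation, 1806 higher at luteolysis), 422 with the 8 dogs alone (108 and 314) and 583 at an adjusted p below 0.05 (126 and 457), against 1197. DESeq2 gave 704 DEG higher at mid-gestation against 357. Some genes given above as not DEG were called by DESeq2, among them COL1A2 (adjusted p = 0.0196), VIM (0.0198) and FSTL1 (0.0372). ESR1 (0.0631), CSF3R (0.0772) and PSAP (0.0823) were others. CYP17A1, CXCL8, RXFP1, GATA6 and YY1 were not called by DESeq2 either. The other scalings and filters left the numbers within 1.5 times. With 1 dog left out the total ran from 112 (without Senta) to 2434 (without Amy), DEG higher at mid-gestation from 20 to 1065 and those higher at luteolysis from 92 to 1369. It was 474 without Kimba, 735 without Dardanel and 703 without Gold. Of list members, 125 were DEG, against 195 with limma-voom, 51 with the 8 dogs alone, 69 at an adjusted p below 0.05 and 21 to 153 with a dog left out. Of the 101 genes named by rule, 78 were DEG, against 45 with the 8 dogs alone and 32 to 79 with a dog left out. For luteolysis over antigestagen the number was 49, with 3 to 69 when a dog was left out. The cause of these shifts was not tested.

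Signs turned in 4 of 2388 values of named genes, none a DEG: CCNA2 without Kimba (−0.02) and without Turgay (−0.18, in a range of −0.18 to 0.41 over the dogs left out), HBA with limma-voom (−0.094) and TPI1 without Kimba (−0.15, in a range of −0.15 to 0.48). With 3 luteolysis dogs, of which 1 stands apart, changes of about 2-fold can be missed. Many were missed in the simulated counts too, which held no such dog.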

Other observations

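AREG, EREG and ERBB2 belong to the epidermal growth factor family, whose ligands relay the ovulatory signal in the follicle. They were chosen after their values were seen, and other genes of the family were not examined. The ligand AREG had 1.21, 1.44, 0.757, 1.25 and 1.47 CPM at mid-gestation (in the order Nescafe, Turgay, Dardanel, Gold and Kurtulus) and 2.25 CPM in Amy, 26.4 in Kimba and 89 in Senta (log2 ratio −4.98, SE 0.90, adjusted p = 0.0108), with all luteolysis dogs above all mid-gestation dogs. EREG, a related ligand, had 0.735, 0.514, 1.01, 2.77 and 2.34 CPM against 0.3 CPM in Amy, 8.18 in Kimba and 64.5 in Senta (log2 ratio −4.03, SE 0.99, adjusted p = 0.0372), and Amy was below the mid-gestation range. ERBB2, a receptor subunit of the family, had 42.6, 40.0, 36, 37 and 34.8 CPM against 25.3 CPM in Amy, 24.4 in Kimba and 18.1 in Senta (log2 ratio 0.75, SE 0.16, adjusted p = 0.0207), without overlap.

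Also chosen after their values were seen, BDKRB2, the bradykinin receptor of vessels and smooth muscle, had 7.14, 3.75, 6.81, 8.25 and 6 CPM against 8.78 CPM in Amy, 79.9 in Kimba and 64.4 in Senta (log2 ratio −3.0, SE 0.52, adjusted p = 0.00927), without overlap. ACTA1, skeletal muscle actin, had 1.52, 0.514, 0.883, 0.0522 and 0.719 CPM against 0.601 CPM in Amy, 172 in Kimba and 59.8 in Senta (log2 ratio −6.71, SE 1.05, adjusted p = 0.00809), with Amy inside the mid-gestation range. MYLK, the myosin light chain kinase of smooth muscle, had 375, 90.3, 177, 265 and 177 CPM against 80.5 CPM in Amy, 1143 in Kimba and 1411 in Senta (log2 ratio −2.02, SE 0.58, adjusted p = 0.0649), with Amy below every mid-gestation dog. CD70, a ligand of the T cell receptor CD27, had at most 0.108 CPM at mid-gestation and 0.3 CPM in Amy, 1.15 in Kimba and 1.91 in Senta (log2 ratio −5.04, SE 1.17, adjusted p = 0.0311).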
